A study of Mus musculus with 2 samples.

Results

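The genes described here encode the soluble proteins that start and extend polypeptide chains on cytosolic ribosomes. They were chosen by name: every protein-coding gene on an autosome whose symbol begins with Eif1 to Eif6, Eef1 or Eef2. The rule takes in their kinases, binding proteins and methyltransferases, and it found 64 genes among 20337 autosomal protein-coding genes and 43346 genes in all, 52 named for initiation and 12 for elongation. Another 3 genes with these names lie on the sex chromosomes and were left out by the rule, among them those of the gamma subunit of eIF2.

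RNA came from 2 pools of 30 Purkinje cells each, the large inhibitory output neurons of the cerebellar cortex, cut from tissue by laser capture. The mice were adult males of the cross B6CASTF1/J, aged 14 months, with no treatment or altered allele named in the labels. The same donor identifier is given for both pools, and whether 1 animal supplied them is not stated. Each standard deviation (SD) is therefore the spread between the pools alone and may be technical. The pools form a single group with no contrast between conditions. No permutation test between groups was therefore possible, and levels are set beside their spread.

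All 10 Purkinje cell markers examined were detected in both pools, with summed levels of 95394 transcripts per 1000000 (TPM) in pool 1 and 94695 TPM in pool 2. TPM counts reads per effective transcript length and has the same sum in each library. Of 10 markers of Bergmann glia and astrocytes, 9 were detected, summing to 2344 TPM in pool 1 and 4138 TPM in pool 2, and Gfap stayed at 0.50 and 0.47 TPM. Red blood cell markers summed to 2453 TPM in pool 1 and 16.3 TPM in pool 2, with 4 of 5 detected in both, and the lists for granule cells, interneurons, oligodendrocytes, microglia and endothelium each summed to between 2.12 and 52.6 TPM in a pool. In such pools, fewer cells of a type and less RNA per cell cannot be told apart.

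Initiation factors bring the initiator transfer RNA and the capped messenger RNA to the small ribosomal subunit, and elongation factors then deliver aminoacylated transfer RNAs and move the ribosome along. In neurons the rate of both steps is set largely by phosphorylation, through the kinases of eIF2 alpha, the binding proteins of the cap-binding factor eIF4E, and the kinase of eEF2. Several factors exist as paralogs that differ between tissues, of which Eef1a2, the form of eEF1A of mature neurons and muscle, and Eef1a1, the form of most other cells, are the best known.

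Most of the factors were present. Taking detection as 1 TPM or more in both pools, 53 of the 64 factors were detected, or 82.8%, against 30.7% of all autosomal protein-coding genes. In pool 2 alone 3 more reached that level and in pool 1 alone 0 did, and 8 stayed below it in both pools. The median of log2(TPM + 1) was 2.89 for the factors, against 0.30 for all autosomal protein-coding genes, 3.79 for 77 mitochondrial ribosomal protein genes and 7.80 for 79 cytosolic ribosomal protein genes. Over genes at 1 TPM or more in at least 1 pool the gap was smaller, 3.38 for the factors against 2.18 for autosomal protein-coding genes. The factors thus lay above the median gene and far below the cytosolic ribosomal proteins they serve. Among genes at 1 TPM or more in at least 1 pool, the lead over the median gene varied with transcript length. Under 1000 bases the median of mean TPM was 15.9 for 12 factors and 15.1 for autosomal protein-coding genes, so levels were close. From 1000 to below 2000 bases the medians were 15.9 and 4.5 TPM. They were 4.0 and 2.9 TPM from 2000 to below 3000 bases, and 6.4 and 2.5 TPM from 3000 bases. The summed expected counts of the factors were 126950 for pool 1 and 111016 for pool 2, which was 0.404% and 0.388% of gene counts. Levels were uneven: Eif1 alone made up 51.8% of the summed mean TPM of the factors, and with Eif4a2 and Eef1a1 it made up 68.6%. At the other end, Eif4e1b had 0 counts in both libraries.

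**Figure D1:**
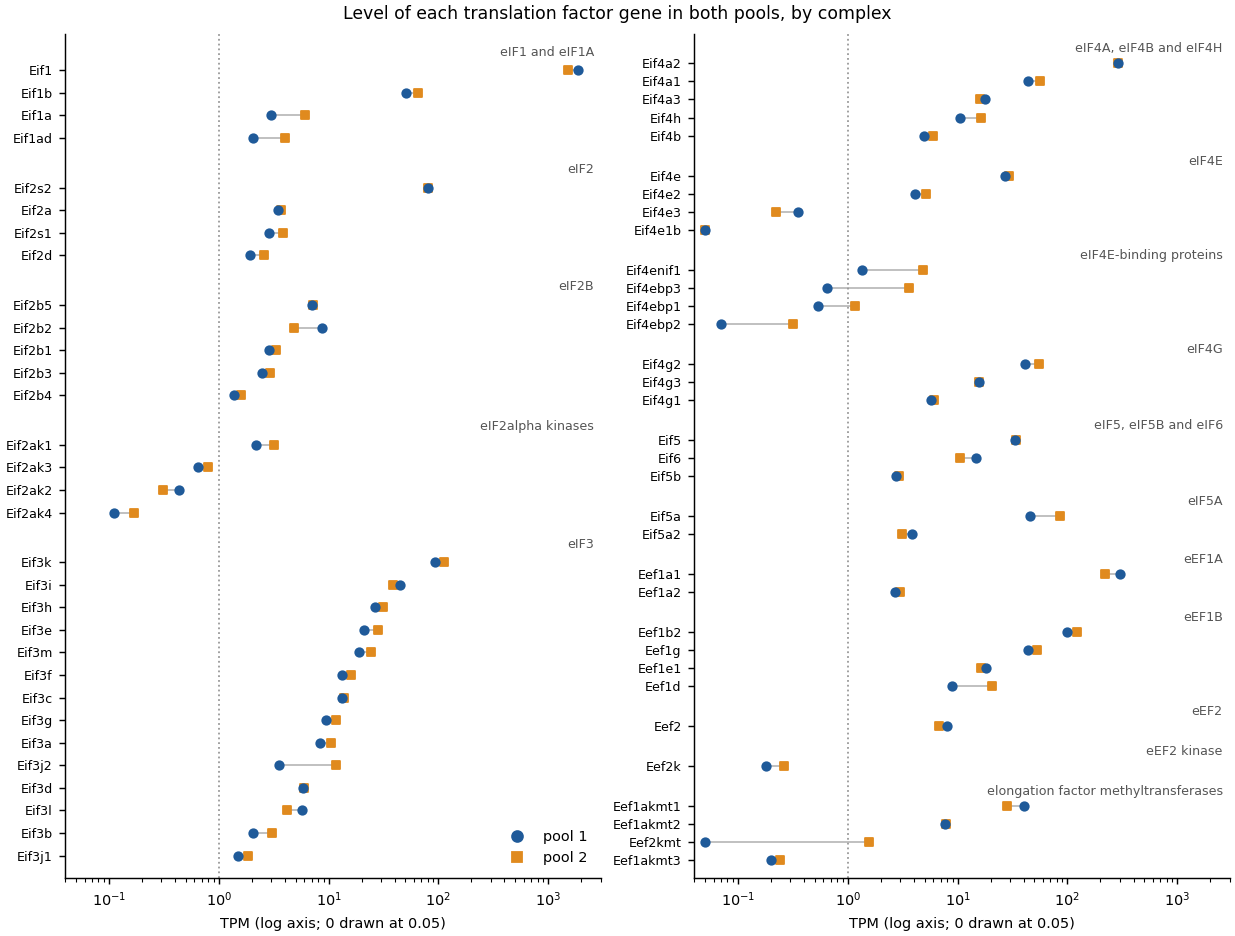
TPM of each of the 64 factor genes (log axis) in pool 1 (circles) and pool 2 (squares), grouped by complex; the dotted line marks a TPM of 1 and values of 0 are drawn at 0.05. Eif1 is farthest right at 1867 and 1526 TPM, while the eIF2 alpha kinases and the eIF4E-binding proteins lie near or left of the line.

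Among the factors that find the start codon, Eif1 stood far above its relatives. Eif1b, its close paralog, had 50.9 TPM in pool 1 and 65.2 TPM in pool 2. Eif1 (ENSMUSG00000035530.9, chromosome 11, 100319885 to 100322096, mm10), which keeps the scanning ribosome open until a start codon is found, had 1867 TPM in pool 1 and 1526 TPM in pool 2. That order held in each pool, with a log2 ratio of Eif1b over Eif1 of -4.87 ± 0.46 (SD, n = 2), although much of the Eif1 signal lay in short non-coding transcripts described further on. Eif1a, an autosomal copy of the start-codon factor eIF1A, had 3.0 TPM in pool 1 and 6.04 TPM in pool 2. Eif1ad, which carries an eIF1A-like domain, was the lowest of this group at 2.04 and 4.02 TPM. Its exons overlap those of Banf1 on the other strand, which had 89.18 and 87.15 TPM.

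The trimeric factor eIF2 carries the initiator transfer RNA, and its subunit genes differed widely. Eif2s2, the beta subunit, had 79.9 TPM in pool 1 and 79.6 TPM in pool 2. Eif2s1, the alpha subunit whose phosphorylation slows initiation, had 2.85 and 3.81 TPM. The beta subunit gene thus lay well above the alpha subunit gene in each pool. A single pseudogene copy of Eif2s2 held 1.75% and 1.60% of their joint counts. Eif2a and Eif2d, which can bind transfer RNA outside the main pathway, had 3.48 and 3.66 TPM and 1.91 and 2.56 TPM.

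All 5 genes of eIF2B, the factor that reloads eIF2 with GTP and whose human mutations cause vanishing white matter disease, were detected. Eif2b5, the catalytic epsilon subunit, had 7.08 TPM in pool 1 and 7.14 TPM in pool 2. Eif2b2 had 8.63 and 4.80 TPM, Eif2b1 had 2.89 and 3.33 TPM, and Eif2b3 had 2.49 and 2.93 TPM. Eif2b4 was lowest with 1.39 and 1.59 TPM, so that the highest mean of the complex was 4.77 times its lowest. In transcripts annotated as coding alone, Eif2b2 had 0.63 TPM in pool 1 and 0.35 TPM in pool 2. Eif2b4 had 0.30 and 0.75 TPM there, with 78.4% and 52.8% of its TPM in transcripts of no annotated type. Eif2b5 had 7.08 and 7.15 TPM, of which an 821-base transcript held 6.59 and 6.45 TPM and a 3186-base transcript 0.49 and 0.70 TPM.

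Of the 4 eIF2 alpha kinases, which relay different stresses to eIF2, 1 was detected in both pools. This was Eif2ak1, the heme-regulated kinase, at 2.19 TPM in pool 1 and 3.15 TPM in pool 2. Exons of Eif2ak1 overlap those of Aimp2 on the other strand, which had 3.51 and 7.59 TPM, and the strand setting of the counting is not stated. Eif2ak3, the kinase of the endoplasmic reticulum stress response known as PERK, had 0.65 and 0.80 TPM. Eif2ak2, activated by double-stranded RNA, had 0.43 and 0.31 TPM, and Eif2ak4, activated by uncharged transfer RNA, had 0.11 and 0.17 TPM. The kinases below 1 TPM still rested on reads: Eif2ak3 on 117 counts in pool 1 and 86 in pool 2, Eif2ak2 on 73 and 33, and Eif2ak4 on 14 and 30. Low TPM of these long transcripts is therefore not absence.

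The scaffold factor eIF3, which holds the small subunit ready for messenger RNA, was detected in full, with 14 of 14 subunit genes in both pools. Levels spread over a 61.6-fold range of means. Eif3k led with 93.6 TPM in pool 1 and 112 TPM in pool 2, followed by Eif3i with 44.7 and 38.6 TPM and Eif3h with 26.6 and 31.1 TPM. Eif3k, like Eif3l and Eif3m, is an accessory subunit absent from the eIF3 of budding yeast. Eif3a, at 8.33 and 10.4 TPM, and Eif3b, at 2.05 and 3.07 TPM, lay in the lower part of the complex, and Eif3c had 13.2 and 13.7 TPM. Of the others, Eif3e, Eif3m, Eif3f and Eif3g had means between 10.6 and 24.6 TPM, and Eif3d and Eif3l had means of 5.91 and 4.97 TPM.

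The loosely bound subunit eIF3j has a pair of genes. Eif3j2, the copy on chromosome 18, had 3.51 TPM in pool 1 and 11.8 TPM in pool 2. Eif3j1, the lowest of the complex, had 1.49 and 1.85 TPM. The coding sequences of the pair were identical over 783 aligned bases, and the whole Eif3j2 transcript matched Eif3j1 at 99.4% over 2379 bases. How the authors' counting split reads between these near-identical copies is uncertain, and the log2 ratio of Eif3j2 over Eif3j1, 1.95 ± 1.01 (SD, n = 2), did not exceed 2 SD.

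Within eIF3, longer transcripts had lower levels. Spearman's rho between TPM and deposited length was -0.73 in each pool over the 14 subunits, from Eif3k at 773 bases to Eif3j1 at 5413 bases. Across the 56 factors detected in at least 1 pool, rho was -0.31 in pool 1 and -0.36 in pool 2, against -0.30 and -0.29 over 7711 autosomal protein-coding genes. These are relations across genes of the same libraries, which share depth and read lengths, and genes are not independent replicates. In counts the subunits were closer: Eif3k had 2563 counts in pool 1 and 2640 in pool 2, and Eif3a, with a transcript of 5176 bases, had 1717 and 1850. Divided by the deposited effective length, which for Eif3k is 674 bases, these counts give mean levels of 103 TPM for Eif3k and 9.38 TPM for Eif3a.

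**Figure D2:**
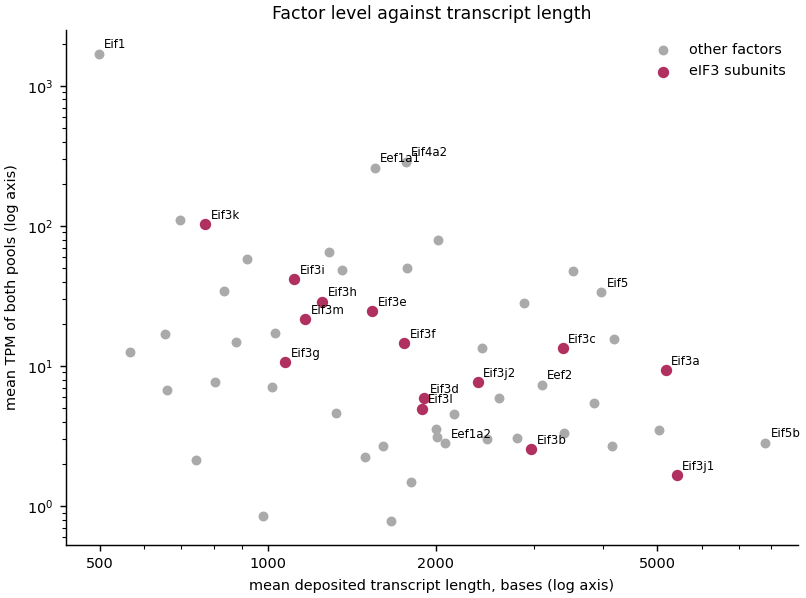
Mean TPM over both pools (log axis) against mean deposited transcript length in bases (log axis) for the 56 factors at a TPM of at least 1 in at least 1 pool, with the 14 eIF3 subunits in red. The eIF3 subunits descend from Eif3k at 773 bases to Eif3j1 at 5413 bases, with a Spearman's rho of -0.73 in each pool.

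The eIF4 proteins load messenger RNA by its cap. Eif4a2 and Eif4a1 encode near-equivalent RNA helicases that unwind the leader, and Eif4a2 is the form known to be high in brain. To show how close such paralogs are, their coding bases from 79 to 138 in Eif4a2 (chr16:23108719-23108778, plus strand) and from 73 to 132 in Eif4a1 (chr11:69670688-69670747, minus strand, GRCm38) are given 5′ to 3′, with the 13 of 60 bases that differ in capitals.
Eif4a2: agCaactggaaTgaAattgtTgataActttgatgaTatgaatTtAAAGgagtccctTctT
Eif4a1: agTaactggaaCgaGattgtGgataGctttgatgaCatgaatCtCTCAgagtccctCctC
Over their whole coding sequences the pair were 78.2% identical, which leaves many bases by which reads can be told apart. Eif4a2 (ENSMUSG00000022884.10, chromosome 16, 23107444 to 23114136) had 287 TPM in pool 1 and 289 TPM in pool 2. Eif4a1 (ENSMUSG00000059796.12, chromosome 11, 69666936 to 69672423) had 43.4 and 56.9 TPM. Over all transcripts Eif4a2 was thus 6.62-fold higher than Eif4a1 in pool 1 and 5.08-fold higher in pool 2, a mean log2 ratio of 2.54 ± 0.27 (SD, n = 2). In transcripts annotated as protein-coding alone, Eif4a2 had 47.2 TPM in pool 1 and 57.6 TPM in pool 2, against 43.3 and 56.7 TPM for Eif4a1, and the log2 ratio was 0.07 ± 0.07. On that scale the genes were level.

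Eif4a3, a related helicase that belongs to the exon junction complex, had 17.9 TPM in pool 1 and 15.9 TPM in pool 2. The helicase cofactors followed, Eif4h with 10.6 and 16.2 TPM and Eif4b with 4.96 and 6.02 TPM. Eif4h exceeded Eif4b by 1.26 ± 0.24 on the log2 scale.

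Of the cap-binding genes, Eif4e2, a paralog that represses rather than starts translation, had 4.06 TPM in pool 1 and 5.13 TPM in pool 2. Eif4e3 had 0.35 and 0.22 TPM on 34 and 19 counts. Eif4e itself had 26.9 and 29.6 TPM, so that the log2 ratio over it was -2.63 ± 0.14 for Eif4e2 and -6.67 ± 0.57 for Eif4e3. With 1 added to each TPM the value for Eif4e3 was -4.51. Eif4e1b, known from oocytes, had 0 counts in each pool, which allows up to 3 counts at this depth. Eif4e was thus the highest of its family in both pools.

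Among the scaffold genes, the best known member was the lowest. Eif4g2, a shorter relative that lacks the eIF4E-binding region, had 41.3 TPM in pool 1 and 54.8 TPM in pool 2, and Eif4g3 had 15.6 and 15.7 TPM. Eif4g1, the main bridge between eIF4E and eIF3, had 5.77 and 6.13 TPM. The log2 ratio over Eif4g1 was 3.0 ± 0.23 for Eif4g2 and 1.40 ± 0.06 for Eif4g3. The Eif4g2 order was as large in coding transcripts, at 3.40 ± 0.36. Eif4g3 over Eif4g1 was -0.08 ± 0.06 there, so its lead came from a transcript annotated as non-coding. The coding level of Eif4g1 lay almost wholly in Eif4g1-207, of 2799 bases, at 3.86 and 3.83 TPM. Its longest coding transcript, of 5638 bases, had 0 TPM in both pools.

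The class of eIF4E-binding proteins was among the lowest, with means from 0.20 to 3.09 TPM. The products of Eif4ebp1, Eif4ebp2 and Eif4ebp3, with means from 0.20 to 2.14 TPM, sequester eIF4E until they are phosphorylated downstream of mTOR. Eif4ebp2, the form known as the main one of the brain, had 0.07 TPM in pool 1 and 0.32 TPM in pool 2 on 5 and 19 counts. Eif4ebp1 had 0.53 and 1.17 TPM, and the log2 ratio of Eif4ebp2 over Eif4ebp1 was -2.40 ± 0.74, or -0.62 with 1 added to each TPM. Eif4ebp3 had 0.64 and 3.64 TPM. Eif4enif1, which carries eIF4E into the nucleus and represses bound messengers, had 1.35 and 4.83 TPM and was the sole member of this class at 1 TPM or more in both pools.

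The factors of subunit joining were present in both pools. Eif5, which stimulates GTP hydrolysis by eIF2, had 33.1 TPM in pool 1 and 34.3 TPM in pool 2. Eif6, which keeps the ribosomal subunits apart, had 14.8 and 10.5 TPM, and Eif5b, the joining GTPase, had 2.77 and 2.91 TPM. The factor eIF5A carries the modified residue hypusine and helps the ribosome through difficult peptide bonds. Its gene Eif5a2 had 3.88 TPM in pool 1 and 3.11 TPM in pool 2, against 45.4 and 84.8 TPM for the common form Eif5a, a log2 ratio of -4.16 ± 0.86.

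Turning to elongation, the forms of eEF1A gave the largest gap of any pair with both genes detected. The opening 60 coding bases are given 5′ to 3′ for Eef1a2 (chr2:181155347-181155406) and Eef1a1 (chr9:78480595-78480654), both on the minus strand of GRCm38, with the 11 bases that differ in capitals, since reads can be assigned to a form only through such positions.
Eef1a2: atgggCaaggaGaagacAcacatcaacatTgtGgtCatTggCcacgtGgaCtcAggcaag
Eef1a1: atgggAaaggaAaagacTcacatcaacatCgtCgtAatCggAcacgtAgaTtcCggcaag
The coding sequences differed at 276 of 1386 aligned bases, an identity of 80.1%. Eef1a2 (ENSMUSG00000016349.10, chromosome 2, 181147653 to 181157014) had 2.67 TPM in pool 1 and 2.97 TPM in pool 2, on 215 and 206 counts. Eef1a1 (ENSMUSG00000037742.10, chromosome 9, 78478449 to 78489151) had 302 and 219 TPM, on 17439 and 11463 counts. The neuronal form was thus detected in both pools but was 113-fold lower than Eef1a1 in pool 1 and 73.8-fold lower in pool 2, a mean log2 ratio of -6.51 ± 0.44 (SD, n = 2). Other settings moved this ratio by less than its SD. Processed pseudogenes of Eef1a1 at 90% identity or more numbered 8, of which 4 had counts, and they held 0.887% of the joint counts in pool 1 and 1.01% in pool 2.

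**Figure D3:**
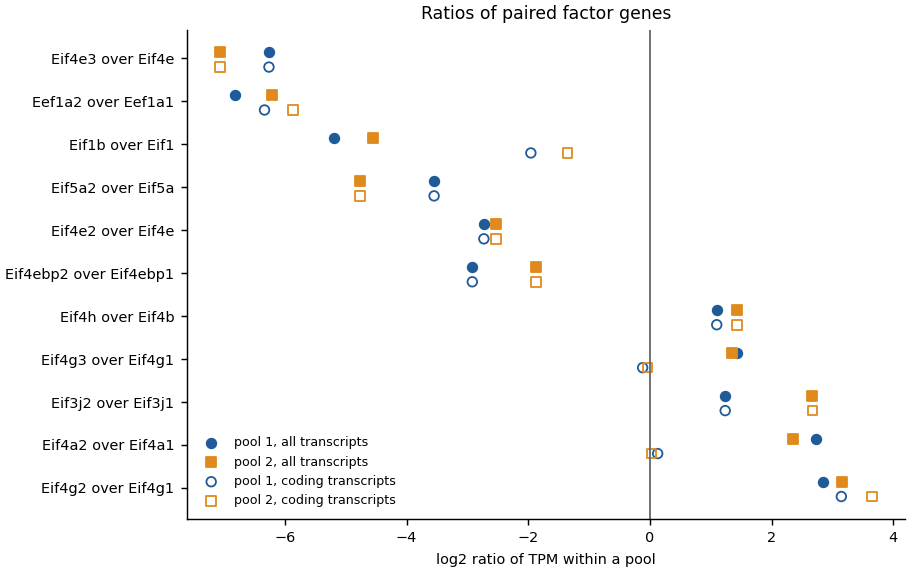
Log2 ratio of TPM within each pool for 11 pairs of related factor genes, pool 1 as circles and pool 2 as squares, over all transcripts (filled) and over protein-coding transcripts alone (open). Eef1a2 over Eef1a1 lies at -6.82 and -6.21 over all transcripts, and the pairs Eif4a2 over Eif4a1 and Eif4g3 over Eif4g1 move to the line at 0 in coding transcripts.

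The exchange factor eEF1B, which reloads eEF1A with GTP, was well covered. Eef1b2 had 98.2 TPM in pool 1 and 123 TPM in pool 2, Eef1g had 43.7 and 52.8 TPM, and Eef1d had 8.92 and 20.7 TPM. Eef1e1, named with them but known as a part of the aminoacyl-tRNA synthetase complex, had 18.2 and 16.3 TPM. Exons of Eef1b2 overlap those of Ndufs1 on the other strand, a respiratory chain gene with 131 and 126 TPM, and the sources used here do not state whether counting used strand. Such overlaps on the other strand were found for 16 factors.

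Eef2, the translocase that moves the ribosome by a codon, had 8.01 TPM in pool 1 and 6.74 TPM in pool 2 on 976 and 707 counts, well below Eef1a1. Its calcium-dependent kinase Eef2k had 0.18 and 0.26 TPM on 46 and 51 counts. The enzymes that methylate the elongation factors ranged widely. Eef1akmt1 had 40.6 and 28.1 TPM, Eef1akmt2 had 7.63 and 7.84 TPM, and Eef1akmt3 had 0.20 and 0.24 TPM. Eef2kmt had 0 counts in pool 1 and 113 counts in pool 2, where its TPM was 1.56.

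The transcript tables showed that a high gene level was not always a level of coding RNA. In 9 of the 53 detected factors, or 17%, less than 50% of TPM lay in transcripts annotated as protein-coding, close to the 16.4% of all detected autosomal protein-coding genes. Transcripts without a type in the annotation used counted as not coding, and in Eif2b4 these held 78.4% of TPM in pool 1 and 52.8% in pool 2. Both of the highest factors, Eif1 and Eif4a2, were among the 9. Of Eif1, 10.6% of TPM in pool 1 and 10.9% in pool 2 was coding, while the 383-base processed transcript Eif1-202 held 64.2% and 66.9%. In counts the coding share of Eif1 was 32.2% and 33.2%, since short transcripts gain TPM per read. With coding transcripts alone Eif1 had 198 TPM in pool 1 and 167 TPM in pool 2, and Eef1a1, at 216 and 174 TPM, ranked above it.

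Of Eif4a2, 81.8% of TPM in pool 1 and 79.3% in pool 2 was assigned to Eif4a2-210, a transcript annotated as a target of nonsense-mediated decay, the pathway that degrades messengers with an early stop codon. Eif4a2-210 had 235 and 229 TPM, and the main coding transcript Eif4a2-203 had 45.6 and 53.7 TPM. The annotated decay transcript lacks an exon of 140 bases (chr16:23109120-23109259, plus strand, GRCm38), a length that leaves a remainder of 2 on division by 3 and so shifts the frame. The exon is shown in capitals, as spliced in Eif4a2-203. In lower case are 15 bases of the neighboring exon on each side, not the intron bases that flank it in the genome.
Eif4a2 exon: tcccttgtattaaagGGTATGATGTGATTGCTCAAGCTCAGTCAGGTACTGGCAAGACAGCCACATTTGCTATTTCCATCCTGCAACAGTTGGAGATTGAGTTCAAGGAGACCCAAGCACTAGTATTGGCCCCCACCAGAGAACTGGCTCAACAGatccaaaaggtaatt
The transcripts also differ at the end: the last exon is 781 bases in Eif4a2-210 and 145 bases in Eif4a2-203. The deposited tables hold no reads across junctions, so which of these differences set the assignment was not tested. Eif4a2-201, which holds the exon and a last exon of 781 bases, had 0.50 TPM in pool 1 and 2.46 TPM in pool 2.

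Other factors with mostly non-coding transcripts were lower. Eef1g-205, a retained-intron transcript, held 84.4% of Eef1g in pool 1 and 85.8% in pool 2, and Eif2b2-203, of the same kind, held 92.6% and 91.2% of Eif2b2. By TPM, processed transcripts led Eif4a3 with 86.5% and 75.4%, Eif4g3 with 75.7% and 69.7%, and Eif6 with 57.5% and 75.8%. In counts, the coding Eif4a3-201 led in pool 2 with 179 against 154 for the processed transcript, and the coding Eif6-201 led in pool 1 with 125.43 against 104.38. A decay-annotated transcript led Eif2a with 53.1% and 92.4%. In Eif2b4 the leading transcript had no name or type in the annotation used, so whether it is coding is not known. Eef1a1 was mostly coding, with 71.4% and 79.3% in Eef1a1-201, and so was Eef1b2, at 68.9% and 69.4% in a transcript of 681 bases. Eif2s2 was 99.8% and 99.9% coding, with 65.3% and 64.6% in its leading transcript Eif2s2-201.

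The leading transcript was the same in both pools for 15 of 16 factors at 10 TPM or more that have several annotated transcripts, or 93.8%, against 93.7% of all genes so filtered. The exception was Eif5a. Ranked by expected counts in place of TPM, 13 of 16 had the same leading transcript, with Eif4a3 and Eif6 as the other exceptions. In Eif5a a transcript of 1343 bases held 40.6% of TPM in pool 1 and 15.8% in pool 2, and another of 1259 bases held 29.5% and 70.2%, both annotated as coding. Among lower factors the leading transcript also differed in Eef1akmt2, Eif2d and Eif2ak4, which had between 14 and 233 counts in a pool.

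**Figure D4:**
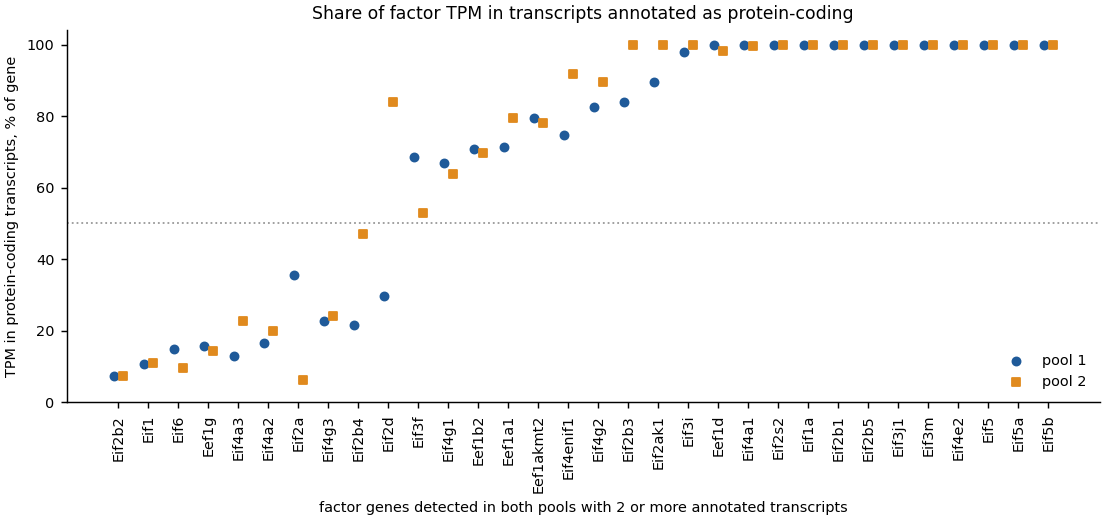
Percent of each gene's TPM in transcripts annotated as protein-coding, in pool 1 (circles) and pool 2 (squares), for detected factors with 2 or more annotated transcripts; the dotted line marks 50%. Eif1 lies at 10.6% and 10.9% and Eif4a2 at 16.4% and 20.0%, while Eif4a1 and Eif2s2 lie near 100%.

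The pools gave much the same order of factors, with a Spearman's rho of 0.96 across the 56 detected in at least 1 pool. Pool ratios are of counts scaled by the trimmed mean of M values (TMM), pool 1 over pool 2. The median log2 ratio was 0.02 for 63 factors with at least 10 counts in total and 0.01 for all such genes. On the TPM scale both medians lay lower, at -0.21 for the factors and -0.24 for all genes at 1 TPM or more in at least 1 pool, so TPM read pool 2 as higher for most genes. Of the 56 factors, 6 were past 2-fold, or 10.7%, against 19.9% of all genes detected in at least 1 pool. This share and those by direction below were not matched for level. At this filter the median of log2(TPM + 1) was 3.38 for factors and 2.18 for autosomal protein-coding genes.

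Higher in pool 1 were 2 of these, or 3.57% against 8.08% of all genes. Eif2b2, a subunit of eIF2B, had 197 counts in pool 1 and 94 in pool 2, a log2 ratio of 1.12. Eif6 had 304 and 157 counts, a log2 ratio of 1.01. Both values lie close to the 2-fold line.

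Higher in pool 2 were 4 factors, or 7.14% against 11.8% of all genes. Eif3j2 had 325 counts in pool 1 and 938 in pool 2, a log2 ratio of -1.47, and shares its sequence with Eif3j1 as given above. Eif4enif1 had 144 and 469 counts, a log2 ratio of -1.64. Eif4ebp3 had 16.7 and 82.1 counts, a log2 ratio of -2.18. Eef2kmt, with 0 and 113 counts, was at least 36.2-fold higher in pool 2, taking 3 counts as the floor of pool 1. Its exons overlap those of Alg1 on the other strand, which had 162 and 77.0 counts. They also overlap those of the antisense gene Gm15983 on that strand, which, like Eef2kmt, had counts in pool 2 alone. Glial marker levels were also higher in pool 2 and red blood cell marker levels in pool 1, and their part in these differences was not tested.

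By an exact binomial test between the libraries, two-sided, with Benjamini-Hochberg adjustment over all genes with at least 10 counts, 41 of 63 factors differed, or 65.1%, the same share as the 65.1% of all genes. This test compares these libraries, not conditions, and at this depth it calls small ratios. Of the factors 14.3% both passed it and were past 2-fold, against 28.9% of all genes, groups that were not matched for level or counts. Under TMM 23 factors were higher in pool 1, or 36.5% against 32.1% of all genes, and 18 in pool 2, or 28.6% against 33%. Of the factors called, 56.1% were higher in pool 1 under TMM, 33.3% under library totals (14 against 28 higher in pool 2), and 92.7% under spike-in totals (51 against 4). Over all genes called, the share higher in pool 1 was 49.3% under TMM, 35.6% under totals and 85.7% under spike-ins. These scalings shift every gene by the same amount, and 4 of the 6 ratios past 2-fold crossed that line under 1 of them. Eif2b2 was 0.93 and Eif6 0.81 under totals, and Eif3j2 was -0.70 and Eif4enif1 -0.87 under spike-ins.

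**Figure D5:**
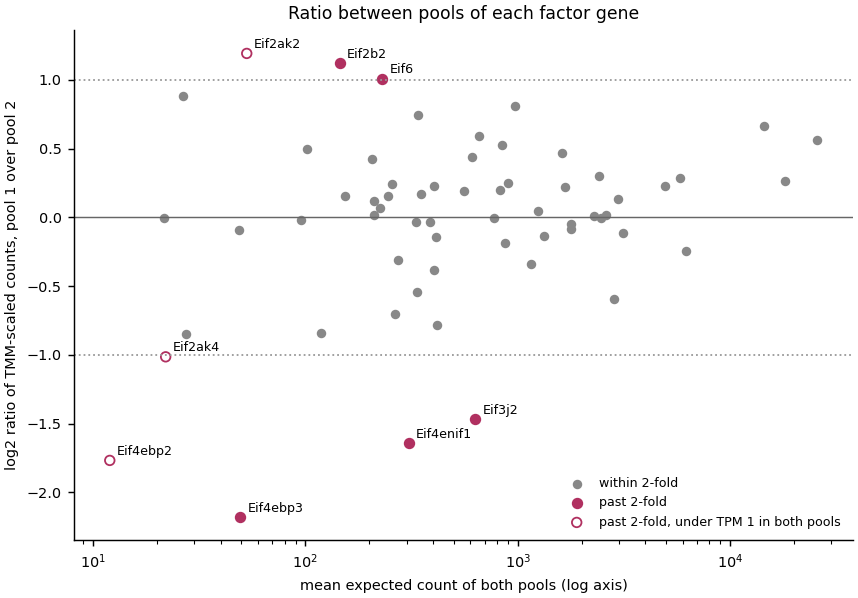
Log2 ratio of TMM-scaled counts, pool 1 over pool 2, against mean expected count (log axis) for the factors with at least 10 counts in total and counts in both pools; dotted lines mark 2-fold. Eif2b2 and Eif6 lie just above the upper line at 1.12 and 1.01, and Eif3j2, Eif4enif1 and Eif4ebp3 lie below the lower one. Open circles mark factors under 1 TPM in both pools, with Eif2ak2 at 1.19, Eif2ak4 at -1.01 and Eif4ebp2 at -1.77. Eef2kmt, at 0 counts in pool 1, is not drawn.

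Translation genes outside the naming rule gave context. Of 32 listed, 31 were matched and 26 were detected in both pools. Tpt1, a very abundant growth-linked protein, had 816 TPM in pool 1 and 773 TPM in pool 2, above every factor but Eif1. Impact, a brain-enriched inhibitor of the activation of the eIF2 alpha kinase Eif2ak4, had 80.3 and 87.2 TPM, and Pdcd4, an inhibitor of eIF4A, had 84.2 and 86.7 TPM. In both pools Impact lay above Eif2ak4, and Pdcd4 lay above Eif4a1. Against Eif4a2, Pdcd4 was lower over all transcripts and higher than its coding transcripts, at 47.2 and 57.6 TPM. Rheb, the activator of mTOR, had 75.0 and 65.4 TPM, while Mtor had 2.94 and 2.79 TPM and Rptor, its partner in the complex that phosphorylates the eIF4E-binding proteins, had 0.62 and 0.66 TPM. The poly(A)-binding protein gene Pabpc1 had 11.8 and 36.8 TPM. Atf4, whose translation rises when eIF2 is phosphorylated, had 15.6 and 19.6 TPM, and its partner Ddit3 had 17.6 and 11.7 TPM. Past 2-fold between pools were 3 of the 28 detected in at least 1 pool, or 10.7% against 19.9% of all genes so filtered: Cyfip1, higher in pool 1, and Ppp1r15a and Abce1, higher in pool 2. Mknk2, below 1 TPM in both pools, had 96 counts in pool 1 and 34 in pool 2, a log2 ratio of 1.54. By the binomial test 26 of 31 differed, or 83.9% against 65.1% of all genes, 14 higher in pool 1 and 12 in pool 2. The listed genes were not matched to all genes for level or counts in either share, and the test calls smaller ratios at higher counts.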

How the data were processed

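Per the text deposited with each sample, tables were made against mm10 (GRCm38) with GENCODE M4; the sources used here do not name the aligner, quantifier or strand setting. Per the file headers, the authors deposited expected counts, TPM and FPKM per gene and, per transcript, the percent of gene TPM. Totals were 31503819 counts in pool 1 and 28709397 in pool 2, and precision is limited by counting error at low counts. Symbols came from GENCODE M21 (42462 identifiers matched). Rows with numeric identifiers held 0.000412% and 0.000194% of counts and were left out. Expected counts were rounded, scaled by TMM (edgeR 4.0.16) and compared by exact binomial tests (threshold 0.05, with 0.5 counts added for log ratios). The test was run on simulated counts that varied by counting error alone, so its behavior with spread beyond that was not tested. Alternatives were DESeq2 1.42.0 size factors, totals and spike-ins. Pseudogene copies were found with BLAST+ 2.17.0 (90% identity, 200 bases). A pair was called ordered past 2 SD. Bias towards the reference allele of the cross was not tested. Members and lists were chosen with earlier results of these data known. Named were the 3 highest and the lowest of each class, all pairs, members under 1 TPM in both pools or past 2-fold with 100 counts on average, and others as noted; Eif4ebp3, Eef2kmt and the transcripts beyond the 5 highest factors were chosen after their values were seen.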

Additional observations from a re-analysis of the deposited data

Results flagged for a closer look

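Gene table rows whose identifiers are numbers carry no gene name and were used nowhere above. Their counts summed to 129.7 in pool 1 and 55.6 in pool 2, more than the 3 counts that would be allowed for a single feature at 0. The sums run over 26248 rows, so passing that limit does not show a signal.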

How the results depend on the processing

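No paired analysis was possible because the pools form a single group. Leaving out a pool cannot be run for ratios between pools. The median of log2(TPM + 1) was 2.89 with either pool left out, and was 2.92 with posterior mean TPM, 3.18 with FPKM, 3.72 with TPM rescaled over autosomal protein-coding genes, 2.71 with a pseudocount of 0.1, 3.38 over members at 1 TPM or more in at least 1 pool, and 2.51 in coding transcripts alone. Eef1a2 over Eef1a1 ranged from -6.82 to -6.21 with either pool left out. Detection in both pools fell to 33 of 64 factors at 5 TPM, and was 53 to 56 with either pool left out. The shares of all genes at these settings were not computed. Spike-in totals gave 18 of 56 factors past 2-fold, against 37.8% of all genes detected in at least 1 pool. Their median pool ratio was 0.79 against 0.78 for all genes. The median pool ratio was -0.18 under total counts, with -0.19 for all genes, and -0.15 with TPM + 1. At 1 TPM in place of 10, 29 of 32 factors kept their leading transcript, more factors being included, and the share of all genes was not computed. Eif4g3 over Eif4g1 turned to -0.081 in coding transcripts alone, where Eif4a2 over Eif4a1 was 0.07 and Eif1b over Eif1 was -1.66. The settings with coding transcripts, added pseudogene copies and a mean of at least 100 counts were chosen after seeing the data. Where not stated, causes were not tested. At low counts, as in Eif4ebp2, depth limits the ratio.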
